A study of Mus musculus with 6 samples.

Results

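Homer1, Homer2 and Homer3 were followed through all probe sets that the array's gene table assigns to one of these genes alone. These are 3 of the 18193 genes that have a probe set of their own. They had 10 of the array's 45037 probe sets, 6 for Homer1, 3 for Homer2 and 1 for Homer3. The genes were chosen after the KO minus WT difference of the brightest Homer1 probe set was known. All Homer1 differences are therefore given as descriptions without a test, and tests are given only for Homer2 and Homer3. RNA of the hippocampus was measured on 3 arrays of Phf8 knockout (KO) mice and 3 arrays of wild-type (WT) mice, labelled C57BL/6 and 10 weeks old in both groups. PHF8 is an X-linked histone demethylase. The KO mice were males that lack the exons of the core region of PHF8, which were flanked by loxP sites and deleted with EIIa-Cre, a Cre expressed in the early embryo, so that the deletion is present in all tissues and not in neurons only. The WT mice were male littermates. According to the methods, the line was derived from another mouse strain and backcrossed to C57BL/6J. The wording of the methods leaves unclear whether an array holds 1 or several mice, so the spread between arrays may be that of pools.

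Homer proteins are scaffolds of the excitatory synapse. Their N-terminal EVH1 domain binds proline-rich stretches in group I metabotropic glutamate receptors, Shank proteins, and inositol trisphosphate and ryanodine receptors, and the C-terminal coiled coil of the long forms joins Homer molecules into larger assemblies that tie these partners together. Homer1 also gives a short form, Homer1a, which neuronal activity induces as an immediate early gene product. The short transcript ends within an intron of the long one, so its protein keeps the EVH1 domain without the coiled coil and competes with the long forms for their partners.

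Arrays of this type read a stretch close to the 3′ end of a transcript, so that short and long Homer1 transcripts can be read by different probe sets. RefSeq lists 5 Homer1 transcripts, and 1 of the 6 Homer1 probe sets carries the identifier of one of them. The tables used here do not place any Homer1 probe set on the short or on the long transcripts. The probe sets are therefore named by their identifiers, and 2 of them carry the suffix _a_at, with which the manufacturer marks probes shared by alternative transcripts of 1 gene.

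The 250 bases before the first listed start of each gene are shown to set the Homer genes beside each other near the point where their transcription begins, since PHF8 is known to act at promoters. They are RefSeq sequences of the GRCm38.p6 build at chr13:93303507-93303756 (plus strand), chr7:81706926-81707175 (minus strand) and chr8:70282749-70282998 (plus strand), printed in the direction of the gene, with each copy of the core of the cAMP response element (TGACG, on either strand) in capitals.
Homer1: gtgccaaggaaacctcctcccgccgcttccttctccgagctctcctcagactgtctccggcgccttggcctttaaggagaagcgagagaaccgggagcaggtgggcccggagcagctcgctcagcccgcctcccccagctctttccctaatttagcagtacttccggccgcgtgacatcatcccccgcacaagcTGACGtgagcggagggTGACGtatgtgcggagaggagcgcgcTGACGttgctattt
Homer2: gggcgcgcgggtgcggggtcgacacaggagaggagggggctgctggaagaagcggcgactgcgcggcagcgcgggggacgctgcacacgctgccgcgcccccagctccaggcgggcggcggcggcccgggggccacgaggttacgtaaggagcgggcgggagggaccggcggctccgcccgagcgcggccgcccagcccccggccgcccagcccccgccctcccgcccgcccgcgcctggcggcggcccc
Homer3: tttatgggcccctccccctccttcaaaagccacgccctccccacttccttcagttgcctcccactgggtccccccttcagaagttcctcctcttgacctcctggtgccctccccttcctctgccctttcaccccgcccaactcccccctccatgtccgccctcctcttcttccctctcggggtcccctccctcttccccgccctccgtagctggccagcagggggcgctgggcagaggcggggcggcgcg
The Homer1 stretch of the first start held 3 copies of the core, 56, 40 and 14 bases before the start, and the Homer2 and Homer3 stretches held 0. The Homer3 stretch runs past position 70282880, where the gene itself begins in RefSeq. Its count therefore covers bases on both sides of that position. RefSeq lists a second Homer1 start, and the 250 bases before it (chr13:93307784-93308033) held 0 as well. Among 32851 promoters of the same length, 17.8% held at least 1 copy and 0.688% held 3 or more. The full element (TGACGTCA, which contains the core), the MEF2 motif and the CArG box were searched on both strands in the same way and matched none of the 3 stretches, against 1.55%, 0.508% and 1.47% of all promoters.

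Values are log2 signals throughout, so that a difference of 1 is a doubling, and are reported as KO minus WT. The trimmed mean signal of the 6 arrays lay between 497.5 and 498.2. KO replicate 3 stood apart, with correlations of 0.92 to 0.94 with the other 5 arrays across probe sets, against 0.98 to 0.99 among those 5. All 10 measured markers (of 12 listed) of the thalamus, which lies next to the hippocampus, were higher in the KO mean, and their summed signal was 6964, 6241 and 37560.5 in KO replicates 1 to 3, against 4762 to 5309 in WT. The summed signal of 9 CA1 pyramidal cell markers was 16293, 17793 and 8836 in KO, against 15542 to 15991 in WT. The 11 measured dentate gyrus markers, in contrast, were lower in the KO mean in every case, with sums of 10701 to 14059 in KO and 14494 to 18012 in WT. These were 9 of 10 listed CA1 and 11 of 12 listed dentate markers that passed the filter on low signals. The targeted gene Phf8 had signals of 8.23, 8.55 and 7.99 in KO and 9.90, 9.66 and 9.73 in WT, a difference of -1.51 (SE 0.17, adjusted p = 0.0527 by limma over genes, or 0.00378 without KO replicate 3). Whether its probe set lies in the deleted exons is not given in the sources used here. Since KO replicate 3 affects many of the values below, the Homer differences and the medians of the 6 gene lists around Homer are given with and without it. Differences of other genes are given without it where they move by more than 1.5 times or turn. In tissue RNA, fewer cells of a type and less RNA per cell cannot be told apart.

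**Figure D1:**
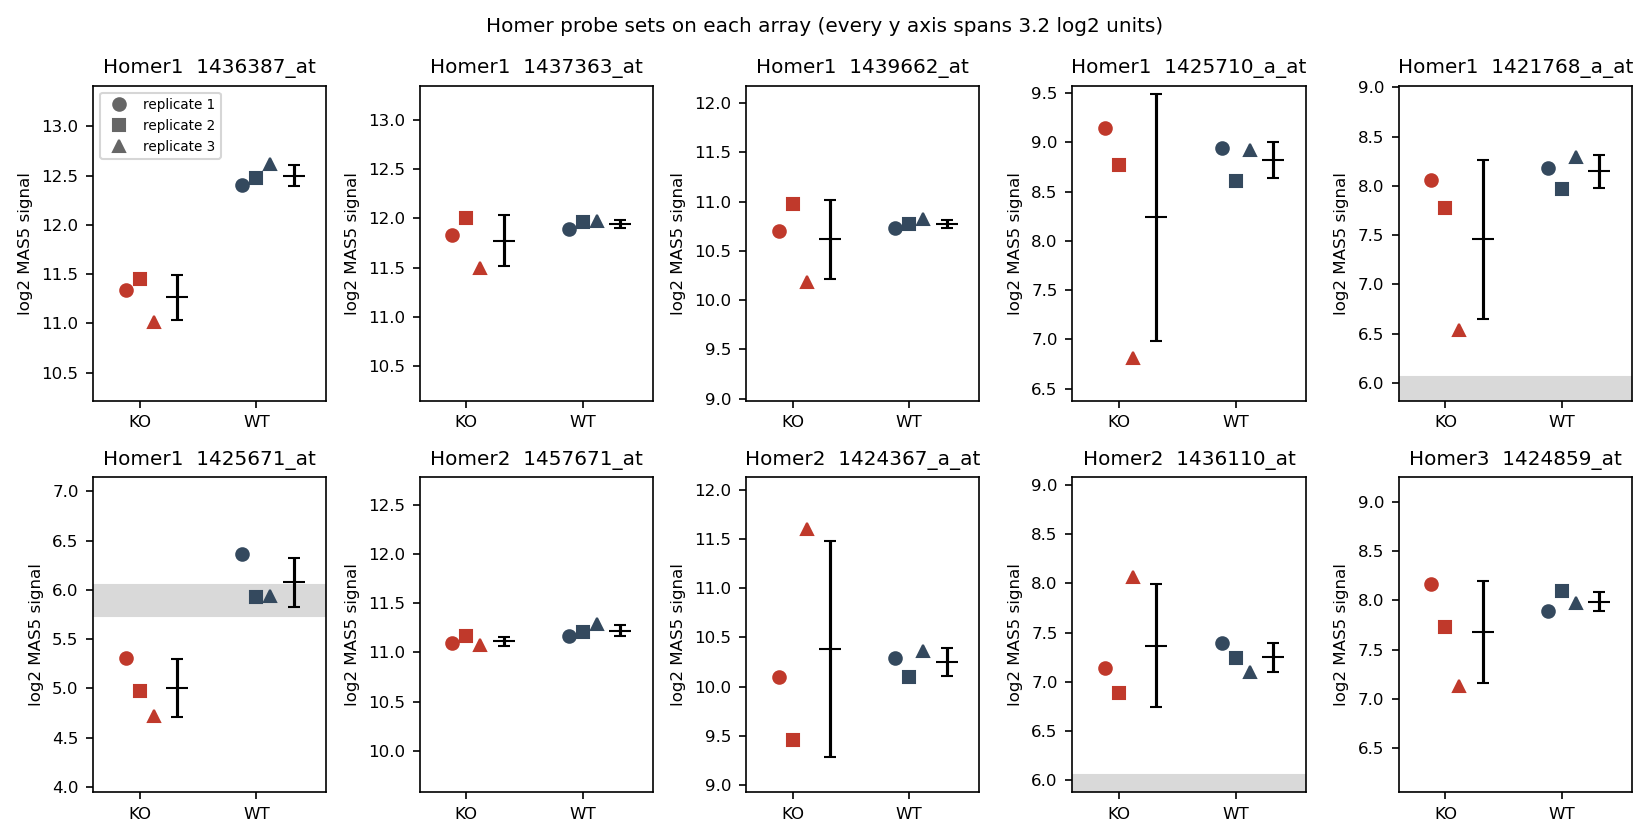
Log2 signal (vertical axis) of each of the 10 Homer probe sets on the 3 KO and 3 WT arrays, with the group mean and SD beside the points and the range of the filter level in grey. For 1436387_at the KO arrays lay at 11.01 to 11.45 and the WT arrays at 12.41 to 12.61, whereas for 1437363_at the groups overlapped.

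The Homer1 probe sets did not behave as one. The brightest, 1436387_at, was lower on every KO array, and so was the dim 1425671_at, whereas the other 4 had at least 1 KO array within or above the WT range. For 1436387_at, the signals were 11.34, 11.45 and 11.01 in KO and 12.41, 12.48 and 12.61 in WT. The groups did not overlap, and the 3 KO arrays lay 1.16, 1.05 and 1.49 below the WT mean. The means were 11.27 ± 0.23 in KO and 12.50 ± 0.11 in WT (SD, n = 3 each), a difference of -1.23 (SE 0.13), so that the KO signal was 42.5% of that in WT. Without KO replicate 3 the difference was -1.11. Of the 27408 probe sets kept after the filter on low signals, 106 had a lower difference. Its WT arrays were also further apart than is usual at this brightness, with an SD of 0.11 against a median of 0.06 over 1082 probe sets within 0.5 of its WT mean.

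For 1425671_at, which did not pass the filter, the signals were 5.31, 4.97 and 4.72 in KO and 6.37, 5.93 and 5.94 in WT. Again every KO array lay below every WT array, by a mean difference of -1.08 (SE 0.36), and of -0.94 without KO replicate 3. The KO signals lay 0.75, 0.76 and 1.32 below the level that the filter required on their arrays, and only WT replicate 1 lay above it. The size of this difference is therefore uncertain. With 16 signal units added to all values before the logarithm the difference shrank to -0.80.

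The next 2 brightest Homer1 probe sets showed little difference on KO replicates 1 and 2. For 1437363_at, signals were 11.83, 12.001 and 11.49 in KO and 11.89, 11.97 and 11.97 in WT, a difference of -0.17 (SE 0.14), or -0.03 without KO replicate 3. For 1439662_at, signals were 10.70, 10.97 and 10.18 in KO and 10.74, 10.77 and 10.82 in WT, a difference of -0.16 (SE 0.20), or 0.06 without KO replicate 3. In both, KO replicate 2 was the highest of the 6 arrays and KO replicate 3 the lowest.

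The 2 probe sets that read alternative transcripts together were low on KO replicate 3 above all. For 1425710_a_at, signals were 9.14, 8.77 and 6.81 in KO and 8.94, 8.61 and 8.92 in WT, a difference of -0.58 (SE 0.56) that turned to 0.13 without KO replicate 3. For 1421768_a_at, signals were 8.06, 7.78 and 6.54 in KO and 8.18, 7.97 and 8.29 in WT, a difference of -0.69 (SE 0.38), or -0.23 without KO replicate 3. On that array they lay 2.02 and 1.61 below the WT mean, a distance of 1.6 or more that 1.94% of the kept probe sets reached there. The limit of 1.6 was fitted to these 2 values, and the share covers kept probe sets of any brightness. The same array held the raised thalamus and lowered CA1 marker signals given above, and their part in these values was not tested.

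All 6 Homer1 probe sets had a lower mean in KO, as did 51.9% of all kept probe sets. The 3 KO arrays lay below the 3 WT arrays for 2 of the 6 Homer1 probe sets and above them for 0, against 7.83% and 7.37% of the kept probe sets, a share that the choice of the genes does not allow to be read as a result. In the limma fit over all kept probe sets, 6 passed an adjusted p of 0.05 (0.0219%), all lower in KO, and none of the 9 kept Homer probe sets was among them. At an unadjusted p of 0.05, 1694 of the kept probe sets passed. With genes represented by their brightest probe set, 8 of 12903 passed (0.062%). Homer1 was one of them, which is how it came to be chosen, so that its pass is not a test result.

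**Figure D2:**
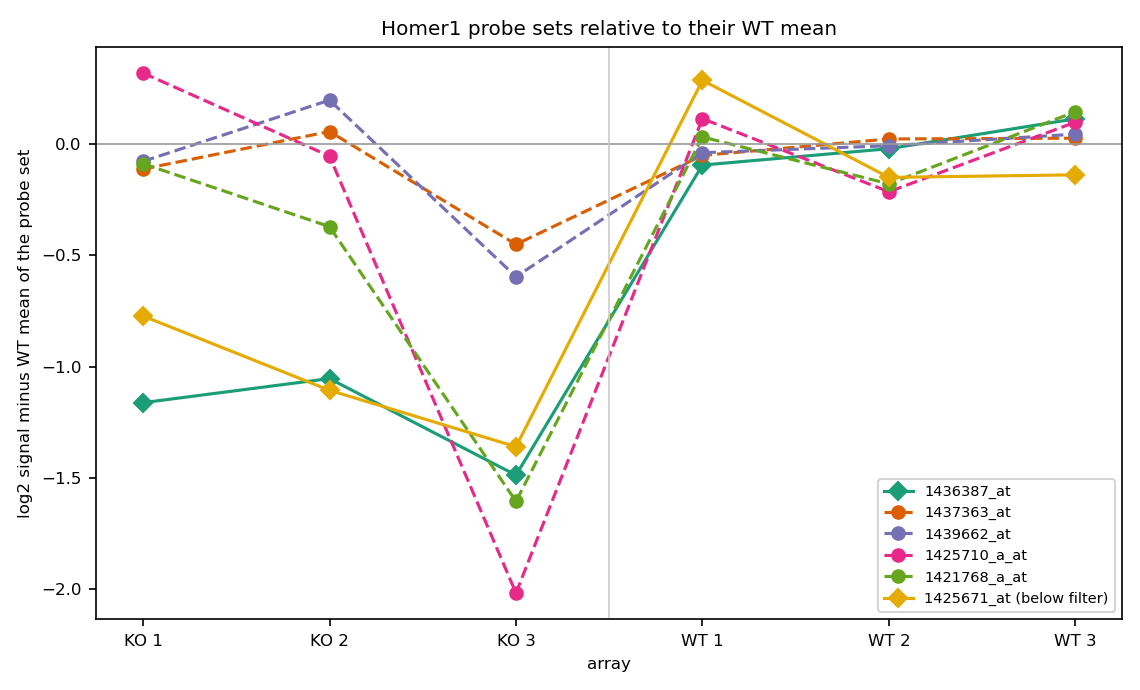
Distance from the WT mean (log2, vertical axis) of the 6 Homer1 probe sets on each KO and WT array. All 3 KO arrays lie at least 1.05 below the WT mean for 1436387_at and at least 0.77 below it for 1425671_at (both drawn solid), and the 2 probe sets with the suffix _a_at lie far below it on KO replicate 3 alone.

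The probe sets were next set against each other within each array, which removes whatever raises or lowers all of them alike on an array. Ratios with 1436387_at carry the difference for which the gene was chosen, and ratios with 1425671_at rest on KO signals below the filter level, so that all are descriptions. The log2 ratio of 1436387_at to 1437363_at, centred on its WT mean, was -1.05, -1.11 and -1.04 in KO and -0.04, -0.04 and 0.09 in WT. The KO ratios, KO replicate 3 included, thus lay close together, at a mean of -1.07 with an SD of 0.04. The ratio of 1436387_at to 1439662_at was -1.08, -1.25 and -0.89 in KO and -0.06, -0.01 and 0.07 in WT. In both ratios every KO array lay below every WT array.

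Between the 2 probe sets that were low on all KO arrays, the ratio of 1436387_at to 1425671_at was -0.39, 0.05 and -0.13 in KO and -0.38, 0.13 and 0.25 in WT. Between the pair that was not, the ratio of 1437363_at to 1439662_at was -0.03, -0.14 and 0.15 in KO and -0.01, 0.03 and -0.02 in WT. Neither of these separated the groups. The ratio of 1437363_at to 1425671_at was 0.66, 1.16 and 0.91 in KO and -0.34, 0.17 and 0.16 in WT, and that of 1439662_at to 1425671_at was 0.70, 1.30 and 0.76 in KO and -0.33, 0.14 and 0.18 in WT. Of the 15 pairs of Homer1 probe sets, which share arrays and probe sets, 4 had ratios that did not overlap between KO and WT, and each of these 4 set one of 1436387_at and 1425671_at against one of 1437363_at and 1439662_at. Among the 10 pairs of kept Homer1 probe sets, 2 did not overlap, against 11.3% of the 17167 pairs of kept probe sets of 1 gene on the array, and both contain 1436387_at. The ratios do not show that 1437363_at or 1439662_at stayed the same.

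**Figure D3:**
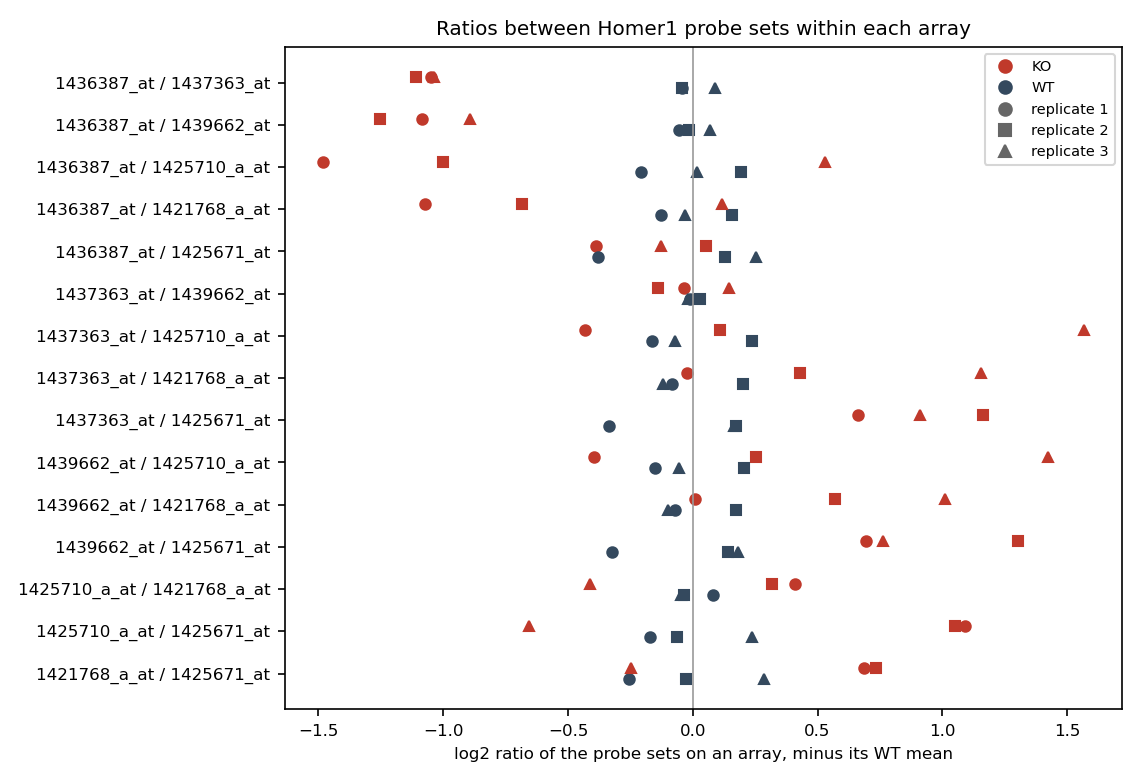
Log2 ratio between Homer1 probe sets within each array, centred on the WT mean (horizontal axis), for KO and WT arrays in each of the 15 pairs. The ratio of 1436387_at to 1437363_at is -1.11 to -1.04 in KO and -0.04 to 0.09 in WT, whereas that of 1437363_at to 1439662_at overlaps between the groups.

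In the ratios of 1436387_at to the probe sets with the suffix _a_at, KO replicate 3 left the other KO arrays. The ratio to 1425710_a_at was -1.48, -1.0 and 0.53 in KO and -0.21, 0.19 and 0.02 in WT. The ratio to 1421768_a_at was -1.07, -0.68 and 0.12 in KO and -0.13, 0.16 and -0.03 in WT. KO replicates 1 and 2 lay below the WT range in both, and KO replicate 3 lay above the WT mean.

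Homer2 encodes a long, coiled-coil Homer protein, and none of its 3 probe sets passed the test. For 1457671_at, the brightest, signals were 11.10, 11.16 and 11.07 in KO and 11.17, 11.21 and 11.28 in WT. Every KO array lay below every WT array, by a mean difference of only -0.11 (SE 0.09, adjusted p = 0.818 by limma), or -0.09 without KO replicate 3 (adjusted p = 0.666). For 1424367_a_at, signals were 10.09, 9.45 and 11.60 in KO and 10.29, 10.09 and 10.36 in WT, a difference of 0.13 (SE 0.49, adjusted p = 0.962) that turned to -0.48 without KO replicate 3 (adjusted p = 0.339). For 1436110_at, signals were 7.14, 6.89 and 8.07 in KO and 7.39, 7.25 and 7.11 in WT, a difference of 0.12 (SE 0.32, adjusted p = 0.943) that turned to -0.23 without that array (adjusted p = 0.645). In the last 2 probe sets KO replicate 3 was the highest and KO replicate 2 the lowest of the 6 arrays.

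Homer3, another long form, is best known from the cerebellum. Its probe set 1424859_at had signals of 8.16, 7.73 and 7.13 in KO and 7.89, 8.09 and 7.97 in WT. The KO arrays included the highest and the lowest of all 6, and the difference of -0.31 (SE 0.27) did not pass the test (adjusted p = 0.817). It was -0.04 without KO replicate 3 (adjusted p = 0.943). On KO replicate 3, Homer3 and the 2 Homer1 probe sets with the suffix _a_at were thus low, and the 2 Homer2 probe sets were high, beside thalamus markers that were high and whose part in this was not tested.

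The genes whose pattern over the 6 arrays was most like that of 1436387_at were looked for among 12902 other genes, by the root mean square difference of the WT-centred log2 signals. The nearest was Pf4, a chemokine of platelets, with 7.62, 7.51 and 7.05 in KO and 8.72, 8.59 and 8.68 in WT, at a distance of 0.11 and with a difference of -1.27. It was followed by Slc25a37, a mitochondrial iron carrier of the erythroid lineage, with 8.66, 8.94 and 8.69 in KO and 10.18, 9.96 and 10.03 in WT. Ctla2a, a protease inhibitor, had 8.12, 8.21 and 8.23 in KO and 9.41, 9.57 and 9.30 in WT. The next were Actl7b, an actin-like protein, with a difference of -1.09, and Clec1b, a receptor of platelets, with a difference of -1.38. Clec1b had 4.52, 5.22 and 4.64 in KO, below the filter level of 5.73 to 6.05. It passed the filter only through its WT signals of 5.98, 6.13 and 6.40, so the size of its difference is uncertain. For these 5 genes, chosen by their likeness, no test is given.

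Erythrocyte markers were measured beside this pattern. Of 7 listed, 4 were measured, and 3 of these were lower on every KO array, against 7.13% of all genes. Alas2, which starts haem synthesis in red cells, had 6.63, 4.62 and 4.65 in KO and 10.43, 10.39 and 10.15 in WT. Hbb-b2, a haemoglobin chain whose signal may include near-identical haemoglobin genes, had 5.70, 5.38 and 4.63 in KO and 8.60, 8.90 and 8.81 in WT, and Slc4a1, the anion exchanger of red cells, had 2.70, 2.94 and 4.49 in KO and 7.49, 7.47 and 7.37 in WT. These 3 needed their WT signals to pass the filter, which favours genes that are lower in KO. No test is given, and the share of 3 in 4 beside 7.13% cannot be read as a result. The fourth, Hba-a2, had 6.25, 5.52 and 5.86 in KO and 6.13, 6.34 and 6.28 in WT, and its groups overlapped. Its signals lay close to the filter level of 5.73 to 6.05, so that the overlap says little. The summed signal of the 4 was 234, 120 and 130 in KO, against 1825 to 2076 in WT. Their part in the Homer1 values was not tested.

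Genes of the pathway around Homer were counted with each gene represented by its brightest probe set, in 6 lists written with earlier results of these data known. No member of any list passed an adjusted p of 0.05 in limma. At an unadjusted p of 0.05, 12 of 115 list members passed (10.4%), and 7.48% of all genes did so. The ligands of the EVH1 domain were balanced, with 6 of 12 measured members higher and 6 lower in KO and a median difference of 0.04, against 0.01 over all genes. Grm5, the main group I metabotropic glutamate receptor of the hippocampus, had 12.10, 12.03 and 12.46 in KO and 11.94, 11.997 and 12.09 in WT (difference 0.19, adjusted p = 0.724), or 0.05 without KO replicate 3. Shank3, a scaffold that Homer ties to these receptors, had 9.78, 9.37 and 9.88 in KO and 9.84, 9.62 and 9.70 in WT (difference -0.04, adjusted p = 0.950), or -0.15 without KO replicate 3. The ryanodine receptor gene Ryr2 and the dynamin gene Dnm3 had differences of -0.49 and 0.43 (adjusted p = 0.673 and 0.659), and both came closer to 0 without KO replicate 3, at -0.19 and 0.23. Trpc4, a cation channel gene, had a difference of 0.13, or 0.21 without it, and the median of the list was 0.04 in that case too. Shank1, Shank2 and Itpr1 were not analysed here.

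Of 15 scaffold and regulator genes of the postsynaptic density, 11 were lower in KO, with a median difference of -0.12, or -0.05 without KO replicate 3. Baiap2, which links the synapse to actin, had 10.64, 10.76 and 10.53 in KO and 11.09, 10.87 and 11.15 in WT (difference -0.39, adjusted p = 0.586). Cyfip2, Sipa1l1 and the alpha-actinin gene Actn2 had differences of -0.30, -0.12 and 0.40, or -0.09, -0.09 and 0.26 without KO replicate 3. In the signalling downstream of group I receptors, 9 of 16 genes were lower in KO, with a median of -0.10, or -0.13 without KO replicate 3, and 5 of the 16 had all KO arrays below all WT arrays, against 7.13% of all genes. Ncdn (neurochondrin) and Grasp (tamalin), which bind these receptors, had differences of -0.20 and -0.47 (adjusted p = 0.589 and 0.602), or -0.15 and -0.29 without KO replicate 3, and Dagla, the enzyme that makes an endocannabinoid, and the protein kinase C gene Prkca had -0.40 and -0.30, or -0.22 and -0.12 without it.

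Homer1a belongs to the activity-induced genes, and 26 of the 33 genes on that list, which leaves Homer1 out, were lower in the KO mean, against 48.1% of all genes. Their median difference was -0.27, and the list's median distance from the WT mean was -0.11, -0.12 and -0.33 on KO replicates 1 to 3. Without KO replicate 3, 27 of 33 were lower, with a median of -0.12, against 5721 of 12903 lower over all genes. Beside 53 of 12903 over all genes, 2 of the 33 then passed the test. These were the transcription factor gene Egr3 (-0.39, adjusted p = 0.0423) and the phosphatase gene Dusp5 (-1.32, adjusted p = 0.0210). With all arrays, Egr3 had 12.38, 12.40 and 11.98 in KO and 12.77, 12.72 and 12.84 in WT (difference -0.53, adjusted p = 0.493). Dusp5 had 6.76, 7.08 and 8.54 in KO and 8.30, 8.32 and 8.08 in WT, so that KO replicate 3 was its highest array.

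Other activity-induced genes did not share one direction. Arc, the dendritic immediate early gene, had 10.63, 9.76 and 10.22 in KO and 10.78, 10.76 and 10.74 in WT (difference -0.56, adjusted p = 0.638), and Nr4a1, Bdnf and Nptx2 had differences of -0.50, -0.32 and -0.36, or -0.36, -0.20 and -0.13 without KO replicate 3. Fos had 11.01, 10.85 and 11.27 in KO and 10.95, 10.97 and 10.92 in WT (difference 0.10, adjusted p = 0.840), and Egr1 a difference of -0.10. Without KO replicate 3 both turned, to -0.02 and 0.02. The neuronal transcription factor gene Npas4 had 8.32, 7.59 and 8.14 in KO and 7.41, 6.86 and 7.54 in WT (difference 0.74, adjusted p = 0.638), with every KO array above every WT array, and Dusp1 had 0.40 (adjusted p = 0.619). On this list 8 of 33 genes had all KO arrays below all WT arrays and 2 had them above, against 7.13% and 9.56% of all genes. The dentate gyrus marker sums, which were lower in KO, are given above, and their part in the lower mean of this list was not tested.

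**Figure D4:**
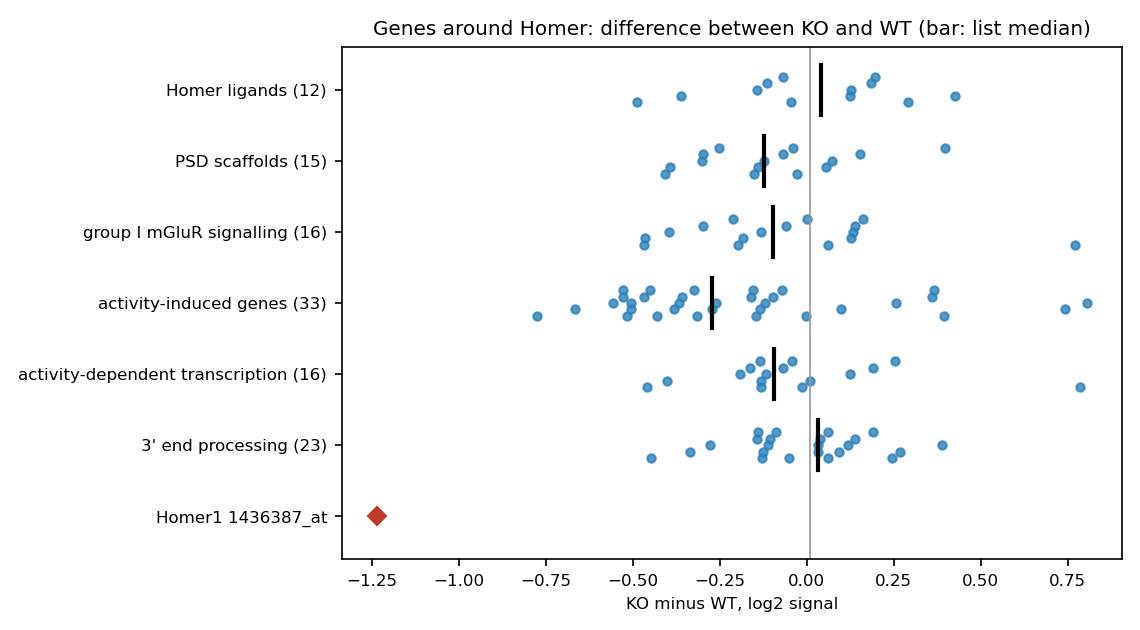
KO minus WT difference (log2, horizontal axis) of each measured gene in the 6 lists around Homer, with the median of each list as a bar, that of all genes as a line and Homer1 1436387_at as a diamond. The median of the activity-induced genes lies at -0.27 and that of the EVH1 ligands at 0.04, against 0.01 over all genes, and no list member passed the test.

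Among 16 regulators of activity-dependent transcription, 11 were lower in KO, with a median of -0.09, or 0.01 without KO replicate 3. The transcription factor genes Elk1, Crem and Mef2d had differences of -0.40, -0.46 and -0.16, or -0.40, -0.28 and -0.03 without that array, and Hdac5, a deacetylase that represses MEF2 factors, had 0.79, or 0.28 without it. The cleavage and polyadenylation factors, through which a cell uses the intronic or the distal end of a gene, were balanced, with 12 of 23 higher and 11 lower in KO and a median of 0.03, or -0.004 without KO replicate 3. Cstf3, a subunit of the cleavage stimulation factor, had 10.10, 10.36 and 9.94 in KO and 10.53, 10.52 and 10.68 in WT (difference -0.45, adjusted p = 0.586). Cpsf3, the enzyme that cuts the transcript, had 10.88, 10.99 and 10.80 in KO and 10.66, 10.73 and 10.54 in WT (difference 0.25, adjusted p = 0.661), and Cpsf1 and the phosphatase gene Ppp1cb had 0.27 and -0.34, or 0.17 and -0.11 without KO replicate 3.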

How the data were processed

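RNA of the hippocampus was measured on 6 Affymetrix 3′ expression arrays, 3 of KO and 3 of WT mice. The deposited values are log2 signals, which the authors made with MAS5 in the affy package according to the submitters' processing notes. Versions are not given in the sources used here. The methods name a filter on Absent calls and a 1.5-fold limit, and no test was named for the arrays. Arrays hold no read depth, and precision is limited by their number. The labels do not say whether replicates were separate animals, so p-values measure only the spread between these samples, which may be technical.

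Of 45037 probe sets, 27408 were kept, those whose signal exceeded the array's 40th percentile in 3 or more of the 6 samples. KO and WT were compared with limma 3.58.1 in R 4.3.3 (lmFit, eBayes with trend) and Benjamini-Hochberg adjustment over all kept probe sets, or over 12903 genes, each represented by its brightest kept probe set. Genes were named from the platform annotation, in which 34945 probe sets have 1 symbol, 932 several and 9160 none. The differences of Homer1 1425671_at, below the filter, come from a fit without it. Promoters were matched by symbol in the RefSeq table, for all 3 genes. Figures were drawn with matplotlib 3.10.9.

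The members and all gene lists were chosen with earlier results of these data known. Named were all Homer probe sets, from each list the measured genes with the lowest p (4 at most), Grm5, Shank1, Shank2, Shank3, Itpr1, Arc, Fos, Egr1, Nptx2, Bdnf and Phf8 whatever their values, and the 5 genes most like 1436387_at. Dusp5 was named after its values were seen. The marker lists not described in the report had these median differences. They were -0.13 for 7 CA3 markers (-0.11 without KO replicate 3), -0.21 for 8 choroid plexus markers (0.91 without it) and 0.14 for 8 interneuron markers (0.10 without it). The others were 0.05 for 7 astrocyte markers (0.02 without that array), 0.29 for 7 oligodendrocyte markers (0.16 without it) and -0.12 for 7 microglia markers (-0.004 without it). Prkcd stands on both the CA3 and the thalamus list.

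The fit was tested on simulated data with 100 probe sets or genes changed by 1 and 100 by 2 on the log2 scale. Over 27408 probe sets it recovered 16 and 68 of them with 3 false calls, and over 12903 genes 46 and 93 with 7 false calls. The simulation gave all arrays the same spread, whereas KO replicate 3 stood apart in the data. These counts therefore need not hold for the real arrays. Other settings tried were median centring, quantile normalization, filters at the 20th and 60th percentile or none, an offset of 16 signal units, variance without trend, array weights, the mean of a gene's probe sets, the replicate number as a block, and leaving out each array.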

Additional observations from a re-analysis of the deposited data

How the results depend on the processing

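The count of probe sets past an adjusted p of 0.05, 6 in the limma fit, was 1 without a filter, 0 with variance without trend (1747 at an unadjusted p of 0.05), 307 with array weights and 2 with the replicate number as a block. It was 0 to 64 when 1 array was left out, 64 without KO replicate 3 and 0 without each WT array in turn (686 to 934 at an unadjusted p of 0.05). The count of genes, 8, was 0 with variance without trend (980 unadjusted), 115 with array weights, 4 with the replicate block and 0 to 53 without 1 array, 53 without KO replicate 3. Homer1 1436387_at was between -1.32 and -1.11 without 1 array and between -1.27 and -1.14 otherwise. Its groups do not overlap, so its direction could not turn when 1 array was left out. The gene was also chosen for this difference. Homer1 1425671_at was -1.23 to -0.94 without 1 array and moved to -0.80 with the offset of 16. With 1 array left out, 1437363_at was -0.28 to -0.03, 1439662_at -0.34 to 0.060, 1425710_a_at -1.04 to 0.13, 1421768_a_at -0.99 to -0.23, Homer2 1424367_a_at -0.48 to 0.60, Homer2 1436110_at -0.23 to 0.36 and Homer3 1424859_at -0.56 to -0.04. The reversals for 1439662_at, 1425710_a_at, 1424367_a_at and 1436110_at all came without KO replicate 3. Array weights, which give less weight to arrays that stand apart, also reversed 1425710_a_at to 0.18, 1424367_a_at to -0.17, 1436110_at to -0.13 and Homer3 1424859_at to 0.10. The same-numbered KO and WT arrays had correlations of -0.02, 0.07 and 0.10 in their distances from the group means. Pairs with unlike numbers had -0.11 to 0.11. With 3 arrays a group, these values cannot show whether arrays of the same number shared a litter or a day. In this balanced design the block changes the spread and leaves each difference as it is. For a probe set, the filters and the variance without trend also leave the difference as it is. With 3 arrays a group, small differences could not be detected.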

Other observations

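Homer1 was wider than most genes in the differences among its own probe sets. Its 5 kept probe sets spanned 1.08 on the log2 scale from the lowest to the highest KO minus WT difference, against a median of 0.52 over the 410 genes with 5 or more kept probe sets, and 27 of these genes (6.59%) spanned at least as much. Without KO replicate 3 the span was 1.24, against a median of 0.53, and 18 genes (4.39%) reached it. This measure was chosen after the values of Homer1 were seen and contains the difference for which the gene was chosen, so that it is a description.

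The genes beside Homer1 on chromosome 13 were measured too. Tent2, on one side, had a difference of -0.13 and Jmy, on the other, one of 0.06 (adjusted p = 0.895 and 0.922 by limma), and both were 0.16 without KO replicate 3. Cmya5, Mtx3 and Bhmt, an enzyme of methionine metabolism, had -0.15, 0.01 and 0.29, or 0.04, 0.07 and 0.95 without it. None of these 5 neighbours passed the test, nor did the measured neighbours of Homer2 on chromosome 7 and of Homer3 on chromosome 8. The neighbours were also chosen after the values were seen.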
